A study of Homo sapiens and Mus musculus with 5 samples.

Results

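The chromosome 11 set of a STARR-seq library of schizophrenia-linked SNP alleles was examined in 4 cell lines. Its members were all library entries whose SNP position lies on chromosome 11, which gave 19 of the library's 347 SNPs, 55 of its 984 fragments and 87 of its 1625 fragment alleles. Each fragment carries 1 SNP allele in 1 of up to 3 placements, with 50 bases in front of the SNP and 150 behind (50/150), 100 on each side (100/100), or 150 in front and 50 behind (150/50). For 17 SNPs all 3 placements were present, and for 2 SNPs there were 2. Both alleles of the same placement were counted in at least 1 line for 32 fragments, and 1 allele alone for the other 23. The alleles are called allele 1 and allele 2 as in the count tables, and the bases they stand for were not used here.

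STARR-seq is a reporter assay in which a candidate enhancer is cloned inside a transcribed unit, so that an active fragment raises the amount of RNA that carries its own sequence. The activity of an allele is read as the amount of its RNA relative to its amount in the plasmid DNA. Enhancers are bound by transcription factors that differ between cell types, and a single base can make or break a binding site, so an allele may act in 1 cell type and not in another. Moving the SNP within the fragment changes which flanking sequence is tested with it.

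The plasmid library was introduced with the Xfect reagent into cells of 4 established lines. Neuro-2a derives from a mouse neuroblastoma, SH-SY5Y from a human neuroblastoma, HEK-293T from human embryonic kidney, and PC-12 from a rat pheochromocytoma, although the organism label of PC-12 reads mouse. Plasmids are read outside the chromosomes, and in the rodent lines human alleles are read by rodent factors. RNA libraries 1, 2 and 3 were used for Neuro-2a, SH-SY5Y and HEK-293T, and RNA libraries 1 and 3 for PC-12. The same 3 input libraries of plasmid DNA, made before transfection, served all 4 lines, so values of different lines share their denominator.

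RNA libraries held 5875437 to 10201521 counts and input libraries 6380682 to 8421333. The median input count of the chromosome 11 alleles was between 2824.3 and 3076.3 depending on the line, against 3452.8 to 3832.3 over the whole library. RNA replicates spread widely. The SD of each allele between RNA libraries was taken on a log2 scale with a pseudocount of 0.5. Its median over chromosome 11 alleles was 1.0 in Neuro-2a, 0.67 in SH-SY5Y cells, 0.73 in HEK-293T and 0.48 in PC-12. Over the whole library the medians were 0.76, 0.61, 0.76 and 0.63 in the same order. Between input libraries the median was 0.04 in each line, for chromosome 11 and the whole library alike. RNA replicate 1 stood apart: over the whole library its activity correlated with that of the other replicates at r = 0.32 to 0.505, while replicates 2 and 3 correlated at 0.662 in Neuro-2a cells, 0.85 in SH-SY5Y cells and 0.613 in HEK-293T. The deviation of replicate 1 from the mean of its line's RNA libraries was shared between lines (r = 0.588 to 0.682). For replicates 2 and 3 that r was 0.141 to 0.477. Agreement between lines is therefore not independent, above all in RNA 1. Of the 904 RNA values of chromosome 11 alleles, 60 were 0, and 20 of these fell in HEK-293T RNA 2. In that library 16.4% of all 1561 alleles were 0. By line, 9.09%, 4.42%, 8.73% and 3.49% of the chromosome 11 values were 0 in the order Neuro-2a, SH-SY5Y, HEK-293T, PC-12. Over the whole library the shares were 5.67%, 3.05%, 6.34% and 5.67%. A count of 0 allows up to 3 counts by counting error, or 0.288 to 0.545 CPM. CPM are counts of an allele per 1000000 of the scaled library size.

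The 19 SNPs lie in or nearest to 15 protein-coding genes if their positions are on GRCh38, a build the sources used here do not state. Inside a gene are the SNPs of MPPED2 (position 30394229), DGKZ (46351761), TMX2 (57726150), RAB3IL1, RCOR2 (63922407), MACROD1 (64023459), PCNX3 and STT3A (125591814). The RAB3IL1 SNP lies 2002425 bases before the RCOR2 SNP, and the PCNX3 SNP 1592825 bases beyond the MACROD1 SNP. Outside genes, the nearest gene is SYT13 (45308670), CTSF (957213 bases beyond the PCNX3 SNP), CASP4 (104810963), C11orf87 (109507345) or ESAM (124763744) for 1 SNP each. IGSF9B is nearest to 2 SNPs, at 133982789 and 24951 bases before it. SNX19 is nearest to 4, at 130847545, 130848735, 130848918 and 131022000. Whether a SNP lies in an exon, an intron or a UTR was not analysed here. A gene name below marks the place of the fragment only; no gene's own expression was measured.

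Activity above or below input was found for a minority of the chromosome 11 alleles, at about the rate of the library or less. Activity is given as log2 of RNA over input after scaling, so 0 is the level of the middle of the library, and an allele was called at a Benjamini-Hochberg adjusted p under 0.05 in edgeR's quasi-likelihood test across the whole library of a line. In Neuro-2a 3 of 77 alleles were called (3.9%), 1 above input and 2 below, against 5.78% of the library (4.08% above and 1.7% below). In SH-SY5Y 8 of 83 were called (9.64%), 6 above and 2 below, against 12.9% of the library (7.43% above and 5.51% below). HEK-293T gave 0 of 84, against 2.37% of the library (1.35% above and 1.02% below). There 11 of the 84 had an unadjusted p under 0.05, DESeq2 called 11 (23.6% of the library) and limma-voom 0 (4.04% of the library). Except for the test between lines, the library's share at an unadjusted p under 0.05 is not given here or below. In PC-12 8 of 86 were called (9.3%), 3 above and 5 below, against 10.4% of the library (5.64% above and 4.77% below). The median activity of the chromosome 11 alleles was 0.02, 0.10, -0.08 and 0.06 in the order Neuro-2a, SH-SY5Y, HEK-293T, PC-12, against 0.01, -0.01, -0.11 and -0.01 over the library in that order.

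These 19 calls fell on 16 alleles of 11 SNPs. They depend on the input libraries: leaving out input 1, 2 or 3 left 0 calls among the chromosome 11 alleles in every line. The whole library fell likewise, to 0.192% called in SH-SY5Y and 0% in the other lines. Leaving out RNA 1 instead raised the calls to 23 in Neuro-2a (29.9%, against 41.3% of the library), 34 in SH-SY5Y cells (41.0% against 54.9%) and 19 in HEK-293T (22.6% against 31.8%). Without RNA 2 there were 5 in Neuro-2a (6.49% against 8.36%), 10 in SH-SY5Y cells (12% against 12.4%) and 8 in HEK-293T (9.52% against 10.6%). Without RNA 3 there were 5 in Neuro-2a (6.49% against 10.3%), 8 in SH-SY5Y cells (9.64% against 12.8%) and 1 in HEK-293T (1.19% against 1.99%). Of the 8 SH-SY5Y calls made with all libraries, 5 were kept without RNA 2 and 5 without RNA 3. PC-12 without RNA 1 or RNA 3 keeps a single RNA library, whose spread is then taken from the input alone, and 78 or 62 alleles passed (90.7% and 72.1%, against 90.1% and 77.9% of the library). The fit gives RNA and input libraries 1 common spread, and the part of the difference in spread in these counts was not tested.

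SNX19 encodes a sorting nexin of the endosomal and lysosomal membranes. Of the 4 SNPs nearest to it, which hold 18 of the 87 alleles, 3 carried 8 of the 19 calls, a count read after the values were seen. The SNPs at 130848735 and 130848918 lie 183 bases apart. Taking the front as the side of lower coordinates, the 150/50 fragment of 130848918 shares 118 bases with the 50/150 fragment of 130848735, 68 with its 100/100 fragment and 18 with its 150/50 fragment. These fragments are therefore not independent tests of the region.

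With allele 1 of 130848735 in the 150/50 placement, RNA was far below input in each line. In PC-12 it had 71.3 and 44.5 CPM in RNA 1 and 3, against 1131, 1132 and 1123 in the 3 input libraries. In Neuro-2a it had 347, 165 and 186 in RNA 1, 2 and 3, against 1137, 1132 and 1132 in the input. In no RNA library of either line did it come near the input. SH-SY5Y RNA gave 40.3, 30.3 and 0 against 1142, 1135 and 1131 in the input, and HEK-293T RNA gave 81.8, 139 and 16.5 against 1187, 1179 and 1165. The groups did not overlap in any line. Activity was -4.28 ± 0.29 in PC-12 (SE, adjusted p = 0.00595), a 19.5-fold lower ratio, and -2.28 ± 0.34 in Neuro-2a (adjusted p = 0.026). It was -5.59 ± 1.72 in SH-SY5Y (adjusted p = 0.0801) and -3.89 ± 0.79 in HEK-293T (adjusted p = 0.0812), which were not called. Allele 2 in the same placement was not called either, with values of -3.68 ± 1.83 in Neuro-2a, -2.61 ± 1.21 in HEK-293T cells and -4.04 ± 2.37 in PC-12, and 1 RNA library at 0 in both Neuro-2a and PC-12. That fragment allele was absent from the SH-SY5Y counts.

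Centred in its fragment, the same allele behaved differently. In the 100/100 placement allele 1 had 3965 and 2812 CPM in PC-12 RNA 1 and 3, against 1214, 1220 and 1167 in the input. Both RNA libraries lay above all input libraries, and activity was 1.5 ± 0.17 (SE, adjusted p = 0.0165). In the other lines the activity of that fragment was -0.28 ± 0.20 in Neuro-2a, -0.10 ± 0.11 in SH-SY5Y cells and -0.07 ± 0.48 in HEK-293T, with no call. The direct test of placement, 150/50 over 100/100 for allele 1, gave -5.80 ± 0.14 in PC-12 (adjusted p = 0.00222), with -5.71 in RNA 1 and -5.89 in RNA 3. The same difference was -2.06 ± 0.39 in Neuro-2a (adjusted p = 0.101), -6.38 ± 2.25 in SH-SY5Y (0.173) and -4.13 ± 1.29 in HEK-293T (0.324), negative in each RNA library that had a value and past the threshold in none of these 3 lines. Allele 2 in the 100/100 and 50/150 placements had PC-12 activities of 1.60 ± 0.30 (adjusted p = 0.0502) and 1.12 ± 0.22 (0.0542), just outside the threshold.

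At 130848918 only allele 1 was counted, and the activity of both its fragments was above 0 in all 4 lines. The 150/50 fragment had 4452 and 6311 CPM in PC-12 RNA 1 and 3, against 1171, 1229 and 1212 in the input. In SH-SY5Y it had 2022, 2809 and 2406 in RNA 1, 2 and 3, against 1182, 1233 and 1221 in the input. RNA and input did not overlap in either line. Activity was 2.16 ± 0.17 in PC-12 (SE, 4.47-fold, adjusted p = 0.00787) and 0.99 ± 0.15 in SH-SY5Y (1.99-fold, adjusted p = 0.0213). Values of 1.17 ± 0.29 in Neuro-2a (adjusted p = 0.0796) and 0.79 ± 0.18 in HEK-293T (0.0877) were not called, although each RNA library of both lines lay above the input.

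The 50/150 fragment of that allele was called in Neuro-2a, where RNA 1, 2 and 3 gave 1209, 1547 and 1135 CPM against 583, 643 and 618 in the input. Activity there was 1.08 ± 0.19 (SE, adjusted p = 0.0321). It was 0.70 ± 0.37 in SH-SY5Y cells, 0.28 ± 0.21 in HEK-293T and 0.59 ± 0.32 in PC-12, none of them called. In PC-12 the 150/50 placement exceeded the 50/150 placement by 1.63 ± 0.19 (adjusted p = 0.0452). The placements differed by 0.04 ± 0.30 in Neuro-2a, 0.40 ± 0.35 in SH-SY5Y cells and 0.50 ± 0.23 in HEK-293T, with no call.

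The SNX19 SNP at 131022000 lies 173082 bases beyond 130848918. Its allele 1 in the 50/150 placement was called below input in PC-12 and in Neuro-2a. PC-12 RNA 1 and 3 had 116 and 53.9 CPM, against 620, 564 and 584 in the input. Neuro-2a RNA 1, 2 and 3 had 168, 84.6 and 140, against 623, 564 and 589. Every RNA library of both lines lay well below the lowest input value. Activity was -2.79 ± 0.41 in PC-12 (SE, adjusted p = 0.0291) and -2.18 ± 0.35 in Neuro-2a (adjusted p = 0.0278). SH-SY5Y gave -2.24 ± 0.70 (adjusted p = 0.0843) and HEK-293T -2.44 ± 1.89, with HEK-293T RNA 2 at 0; neither was called.

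Placement differences of that allele were also called in PC-12. The 50/150 fragment was lower than the 100/100 fragment by a log2 difference of -2.48 ± 0.24 (SE, adjusted p = 0.0333), and the 150/50 fragment exceeded the 50/150 fragment by 2.54 ± 0.34 (adjusted p = 0.0465). The 100/100 and 150/50 fragments themselves had PC-12 activities of -0.35 ± 0.31 and -0.33 ± 0.33. Elsewhere the 50/150 over 100/100 difference was -1.59 ± 0.65 in Neuro-2a, -2.92 ± 0.78 in SH-SY5Y cells and -3.58 ± 2.99 in HEK-293T, none of them called.

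Allele 2 of 131022000 in the 150/50 placement was among the 3 highest chromosome 11 alleles in all 4 lines, yet it was called in none. Its RNA 1, 2 and 3 values were 92.1, 789 and 663 CPM in HEK-293T, against 66.7, 60.4 and 66.1 in the input. In SH-SY5Y they were 94.0, 445 and 489, against 64.1, 58.2 and 64.2. In Neuro-2a they were 0, 645 and 496, and in PC-12 41.1 and 396 in RNA 1 and 3, against 58.0 to 64.2 in the input of these lines. RNA 1 was the lowest library in each line, below the input in Neuro-2a and PC-12, and the other libraries were several times the input. Activity was 3.0 ± 0.82 in HEK-293T (SE, adjusted p = 0.112), 2.46 ± 0.65 in SH-SY5Y (0.0583), 2.62 ± 2.11 in Neuro-2a (0.5) and 1.82 ± 0.96 in PC-12 (0.268). Without RNA 1 the activity was 3.50 in HEK-293T, 2.93 in SH-SY5Y cells and 3.18 in Neuro-2a.

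The CTSF SNP lies outside the gene it is named by, which encodes cathepsin F, a cysteine protease of the lysosome. Its allele 2 in the 50/150 placement was above input in SH-SY5Y and gave the smallest p of any chromosome 11 allelic effect. SH-SY5Y RNA 1, 2 and 3 had 428, 1008 and 1411 CPM of allele 2, against 143, 141 and 144 in the input. Allele 1 had 552, 885 and 792 in the same RNA libraries, against 828, 815 and 852 in the input. Allele 2 thus exceeded its input in every RNA library, while the RNA of allele 1 straddled its own. Activity of allele 2 was 2.73 ± 0.46 (SE, 6.65-fold, adjusted p = 0.0248), and that of allele 1 was -0.16 ± 0.22 (adjusted p = 0.647).

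The allelic effect of that fragment, allele 2 over allele 1, was 2.18, 2.73 and 3.38 in SH-SY5Y RNA 1, 2 and 3, and the fitted value was 2.76 ± 0.37 (SE, unadjusted p = 0.000455, adjusted p = 0.137). It was positive in all 3 libraries but not past the threshold after adjustment. In HEK-293T it was 1.27, 3.44 and 2.45 by library, with a fitted value of 2.39 ± 0.64 (adjusted p = 0.677). Neuro-2a gave -0.12, 1.42 and 1.89, or 1.08 ± 0.59, and PC-12 gave 0.26 and 0.59, or 0.42 ± 0.23, neither of them called. Allele 2 had activities of 2.17 ± 0.49 in HEK-293T (adjusted p = 0.0877), 1.99 ± 0.75 in Neuro-2a (0.168) and 0.31 ± 0.29 in PC-12 (0.512). Without RNA 1 the allelic effect was 3.05 in SH-SY5Y, 2.94 in HEK-293T cells and 1.65 in Neuro-2a.

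In PC-12 allele 2 of the CTSF 100/100 fragment was below input, with 99.6 and 104 CPM in RNA 1 and 3, against 240, 253 and 246 in the input, and an activity of -1.27 ± 0.19 (SE, adjusted p = 0.0295). In Neuro-2a and HEK-293T that allele had a library at 0, and its activities were -0.84 ± 1.95 and -0.07 ± 1.92. SH-SY5Y gave 0.45 ± 0.32. The allelic effect of the 100/100 fragment in SH-SY5Y was 2.20, -1.84 and -1.12 by library, so its sign differed between replicate 1 and the other two. In SH-SY5Y the 150/50 fragment of allele 2 had 2787, 1311 and 2084 CPM in RNA 1, 2 and 3, against 1028, 1001 and 971 in the input. All 3 RNA libraries lay above the input, and activity was 1.04 ± 0.28 (SE, adjusted p = 0.0599), not called. The 150/50 over 50/150 difference of that allele in SH-SY5Y was -1.63 ± 0.68 (adjusted p = 0.228), also not called. Elsewhere its 150/50 activity was 0.01 ± 0.39 in Neuro-2a, 0.51 ± 0.34 in HEK-293T cells and 0.02 ± 0.15 in PC-12, without a call.

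PCNX3 encodes a multi-pass membrane protein of the pecanex family, and its SNP lies inside the gene. Allele 1 was above input in SH-SY5Y in both placements in which it was counted. The 50/150 fragment had 674, 1952 and 1011 CPM in SH-SY5Y RNA 1, 2 and 3, against 362, 346 and 382 in the input. For the 150/50 fragment the values were 1107, 939 and 1324, against 578, 573 and 518. No RNA library overlapped the input in either placement. Activity was 1.74 ± 0.41 (SE, 3.34-fold, adjusted p = 0.0478) for 50/150 and 1.01 ± 0.18 (2.02-fold, adjusted p = 0.0279) for 150/50.

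In the other lines neither PCNX3 fragment was called. The 50/150 fragment gave 0.65 ± 0.43 in Neuro-2a, 0.54 ± 0.37 in HEK-293T cells and 0.33 ± 0.13 in PC-12, and the 150/50 fragment 0.30 ± 0.26, 0.11 ± 0.30 and -0.03 ± 0.25 in the same order. Whether SH-SY5Y differed from those lines in activity was not tested. An allelic effect could be computed for the 150/50 fragment, and it was -0.06, -1.39 and -0.90 in SH-SY5Y RNA 1, 2 and 3, or -0.79 ± 0.44 (SE, adjusted p = 0.393). It was 0.21 ± 0.97 in Neuro-2a, -1.77 ± 3.06 in HEK-293T cells and -0.39 ± 0.37 in PC-12, with no call. Allele 2 of that fragment had a count of 0 in HEK-293T RNA 2.

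RAB3IL1, a guanine nucleotide exchange factor for Rab GTPases of the secretory pathway, contains 1 SNP of the set. None of its 6 alleles was called for activity in any line, and their values ran from -0.69 to 1.80. The 50/150 fragment had the smallest unadjusted p of all 514 fragments in the test of whether the allelic effect differs between lines. Only 4 of the 514 were under 0.05, fewer than uniform p-values would give, so this rank is no evidence of a difference. In Neuro-2a allele 2 of that fragment had 359, 301 and 311 CPM in RNA 1, 2 and 3, against 524, 529 and 515 in the input. Allele 1 had 1569, 1451 and 1780, against 1480, 1499 and 1511 in the input. All Neuro-2a RNA values of allele 2 lay below its input, while those of allele 1 straddled its own.

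By library the RAB3IL1 50/150 allelic effect was -0.61, -0.75 and -1.0 in Neuro-2a and 0.46, 0.33 and 0.40 in SH-SY5Y, opposite in sign in all 3 pairs of values. It was -0.40, -0.50 and 0.13 in HEK-293T and -0.08 and 0.43 in PC-12. Fitted values were -0.79 ± 0.23 in Neuro-2a (SE, unadjusted p = 0.0162, adjusted p = 0.386), 0.40 ± 0.17 in SH-SY5Y (adjusted p = 0.355), -0.26 ± 0.25 in HEK-293T and 0.18 ± 0.20 in PC-12. Between lines the test gave an unadjusted p of 0.0129 and an adjusted p of 1. In the 100/100 placement the effect was -0.91 ± 0.50 in HEK-293T, -1.12 ± 0.54 in SH-SY5Y and -1.71 ± 1.09 in PC-12. By library it was 0, -0.98 and -1.74 in HEK-293T and 0.02, -1.47 and -1.87 in SH-SY5Y. PC-12 gave -0.14 and -3.27 in RNA 1 and 3, so replicate 1 was near 0 in each of these lines. In Neuro-2a, where RNA 1 of allele 1 was 0, the 100/100 effect was 1.30 ± 2.76. The 150/50 placement gave -0.02 to 0.39 over the 4 lines. No RAB3IL1 allelic effect was called.

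IGSF9B encodes an adhesion molecule of the immunoglobulin superfamily found at inhibitory synapses. Of the 6 alleles of its first SNP, allele 2 of the 100/100 fragment was called, in PC-12 only among the 4 tests. It had 219 and 281 CPM in PC-12 RNA 1 and 3, against 88.0, 81.9 and 87.8 in the input, so RNA and input did not overlap. Activity was 1.54 ± 0.23 (SE, 2.9-fold, adjusted p = 0.0295). It was 1.11 ± 0.66 in Neuro-2a, 1.36 ± 0.63 in SH-SY5Y cells and -1.04 ± 2.08 in HEK-293T, where RNA 2 was 0 and RNA 3 held 7.18 CPM. Allele 1 of the fragment had 0.76 ± 0.16 in PC-12 (adjusted p = 0.0633), and the allelic effect there was 0.50 and 1.04 by library, or 0.77 ± 0.37 (adjusted p = 0.59). In Neuro-2a that effect was 0.89, 1.16 and 3.02 by library, or 1.67 ± 1.02 (adjusted p = 0.607). SH-SY5Y gave -0.10, 2.29 and 3.11, or 1.82 ± 0.95 (adjusted p = 0.371), and HEK-293T gave 0.44 and -3.28 in RNA 1 and 3, or -3.57 ± 3.33 (adjusted p = 0.803). The effect was thus of either sign, and it was called in no line.

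The 50/150 fragment of that SNP varied widely between libraries. Allele 1 had 0, 624 and 327 CPM in Neuro-2a RNA 1, 2 and 3, and 75.2 and 589 in PC-12 RNA 1 and 3, against 46.0 to 48.5 in the input of these lines. Its activities, 2.75 ± 2.14 in Neuro-2a and 2.82 ± 0.90 in PC-12, were the highest of chromosome 11 in those lines, and neither was called. In SH-SY5Y the same allele had 45.5, 463 and 0, and in HEK-293T 105, 0 and 467. Allele 2 had a count of 0 in input 3, which the fit kept.

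The second IGSF9B SNP, at 133982789, gave no call. Allele 2 of its 150/50 fragment was measured at 1.27 ± 0.48 in Neuro-2a, 0.99 ± 0.42 in SH-SY5Y cells and 1.14 ± 0.31 in HEK-293T (adjusted p = 0.173, 0.159 and 0.112), and at -0.53 ± 0.22 in PC-12 (0.187). Its 50/150 fragment had an allelic effect of -1.11 ± 0.64 in PC-12 (adjusted p = 0.59).

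The remaining calls fell on SNPs at RCOR2, MPPED2, SYT13, CASP4 and ESAM. RCOR2, a corepressor of the REST complex, contains the SNP at 63922407, whose 150/50 fragment was below input in PC-12 with either allele. Allele 1 had 81.5 and 58.8 CPM in PC-12 RNA 1 and 3, against 217, 207 and 206 in the input, and allele 2 had 46.8 and 30.7 against 142, 135 and 133. Activity was -1.58 ± 0.26 for allele 1 (SE, adjusted p = 0.0373) and -1.82 ± 0.34 for allele 2 (adjusted p = 0.0488). In SH-SY5Y the 2 alleles gave -1.67 ± 0.66 and -1.86 ± 0.51, in HEK-293T -1.89 ± 1.87 and -2.72 ± 1.87, and in Neuro-2a -0.43 ± 0.67 and -1.61 ± 1.87, without a call.

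MPPED2 encodes a metallophosphoesterase and contains the SNP at 30394229. Allele 1 of its 50/150 fragment had 855, 1872 and 1280 CPM in SH-SY5Y RNA 1, 2 and 3, against 566, 535 and 566 in the input. All 3 RNA libraries were above the input, and activity was 1.26 ± 0.30 (SE, adjusted p = 0.0485). HEK-293T gave 1.33 ± 0.36 (adjusted p = 0.112), Neuro-2a 0.37 ± 0.29 and PC-12 0.47 ± 0.28. The 100/100 fragment had an allelic effect of 1.47 and 0.04 in PC-12 RNA 1 and 3, or 0.76 ± 0.58 (adjusted p = 0.59). In SH-SY5Y that effect was -0.77 and -2.10 in RNA 1 and 2, or -3.01 ± 2.41 (adjusted p = 0.535). In HEK-293T it was -1.0 and -1.05 in RNA 1 and 3, or -2.54 ± 2.51 (adjusted p = 0.815). The remaining RNA library of each line had a count of 0 for an allele.

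SYT13, an atypical member of the synaptotagmin family of vesicle proteins, is nearest to the SNP at 45308670. Allele 2 of the 100/100 fragment had 196, 130 and 121 CPM in SH-SY5Y RNA 1, 2 and 3, against 346, 343 and 350 in the input, and an activity of -1.22 ± 0.28 (SE, adjusted p = 0.0461). The highest chromosome 11 value of SH-SY5Y was allele 1 of the 50/150 fragment, with 312, 1748 and 1988 against 189, 190 and 189 in the input. Its activity of 2.83 ± 0.69 missed the threshold (adjusted p = 0.0504), as did 2.69 ± 0.55 in HEK-293T (0.0812), 1.71 ± 0.91 in Neuro-2a (0.312) and 1.55 ± 0.67 in PC-12 (0.205). RNA 1 was the lowest library in all 4 lines. The allelic effect of that fragment was 0.08, -4.26 and -4.14 in SH-SY5Y cells and -0.04, -2.86 and -4.18 in HEK-293T, with fitted values of -3.0 ± 1.35 and -2.44 ± 1.16, so replicate 1 was near 0 in both lines and the other replicates were strongly negative. Without RNA 1 the fitted values were -4.20 in SH-SY5Y and -3.52 in HEK-293T.

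CASP4, an inflammatory caspase, is nearest to the SNP at 104810963. Allele 1 of its 50/150 fragment had 56.1, 84.6 and 46.1 CPM in SH-SY5Y RNA, against 240, 236 and 242 in the input, and an activity of -1.94 ± 0.34 (SE, adjusted p = 0.0267). Its activity was -0.05 ± 0.78 in Neuro-2a, -1.34 ± 1.89 in HEK-293T cells and -0.71 ± 0.30 in PC-12. ESAM, an adhesion molecule of endothelial cells, is nearest to the SNP at 124763744. Allele 2 of its 150/50 fragment had 559, 590 and 558 in SH-SY5Y RNA, against 334, 358 and 335 in the input. RNA replicates were close to each other there, and activity was 0.73 ± 0.16 (adjusted p = 0.0401). It was 0.41 ± 1.98 in Neuro-2a, 0.09 ± 0.29 in HEK-293T cells and -0.27 ± 0.17 in PC-12.

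Of the 19 SNPs, 8 had no call in any line. They were those at DGKZ, which encodes diacylglycerol kinase zeta, TMX2, a thioredoxin-related membrane protein, RAB3IL1, MACROD1, a mono-ADP-ribosylhydrolase, C11orf87 and STT3A, a catalytic subunit of oligosaccharyltransferase, together with 130847545 near SNX19 and 133982789 near IGSF9B. DGKZ alleles ran from -2.12 to 0.80 over the 4 lines, TMX2 alleles from -0.53 to 1.31 and MACROD1 alleles from -1.0 to 0.89. C11orf87 alleles ran from -2.32 to 0.72, and the lowest was the 50/150 fragment of allele 1 in each line. STT3A had allele 2 alone, with values of -1.40 to 1.24. In HEK-293T 3 of the 15 RNA values of the DGKZ alleles were 0, and the SEs of the alleles concerned were 1.92 to 2.04.

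Allelic effects were tested for 24 chromosome 11 fragments in Neuro-2a, 29 in SH-SY5Y cells, 31 in HEK-293T and 31 in PC-12. None was called, against 0.187%, 0.166%, 0% and 0% of the library's fragments in the same order of lines. With edgeR 1, 4, 1 and 1 fragments had an unadjusted p under 0.05, DESeq2 found 2, 1, 0 and 1 (against 12.7%, 4.49%, 0.99% and 10.7% of the library), and limma-voom 0 in each (0% of the library in each). Without RNA 1 the calls numbered 3, 12, 4 and 25 (12.5%, 41.4%, 12.9% and 80.6%, against 30.5%, 46.9%, 20.8% and 89.3% of the library). Without RNA 3 those of PC-12 numbered 14 (45.2% against 53.9%); either omission leaves PC-12 a single RNA library. All RNA libraries had 1 sign for 3 of 24, 8 of 29, 5 of 31 and 11 of 31 fragments. PC-12 has 2 RNA libraries against 3 elsewhere, so 1 sign arises more easily there by chance. Fragments with a count of 0 for an allele in an RNA library, 13, 8, 16 and 5, could not qualify. The library's share is not given, so these counts do not show consistent effects. The largest effects with 1 sign in all libraries that have not been given above were at 131022000 150/50, with 0.91, 3.98 and 2.65 by library in SH-SY5Y (fitted 2.53 ± 0.89, adjusted p = 0.355) and 0.40, 3.74 and 4.03 in HEK-293T (2.85 ± 1.23, adjusted p = 0.677). MACROD1 100/100 had 0.47 ± 0.30 in Neuro-2a (adjusted p = 0.607). Median allelic effects of chromosome 11 fragments were 0.45, 0.17, -0.26 and 0.09 in the order Neuro-2a, SH-SY5Y, HEK-293T, PC-12, against 0.02, 0.02, 0.01 and -0.02 over the library.

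The difference of the allelic effect between lines was tested for 21 chromosome 11 fragments of 514 with both alleles in all lines. None was called, and 0% of the library was. Of all 514, 4 had an unadjusted p under 0.05, fewer than uniform p-values would give, so the lack of calls says little. On chromosome 11, 2 fragments had an unadjusted p under 0.05. These were RAB3IL1 50/150, described above, and CTSF 50/150 (unadjusted p = 0.027, adjusted p = 1), with 1.08, 2.76, 2.39 and 0.42 in the order Neuro-2a, SH-SY5Y, HEK-293T, PC-12. With limma-voom the count was also 0, and leaving out RNA 1, 2 or 3 of every line gave 0 chromosome 11 fragments.

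Placement was compared for 53, 63, 64 and 68 pairs of chromosome 11 fragments carrying the same allele in the order Neuro-2a, SH-SY5Y, HEK-293T, PC-12. All 4 calls were in PC-12 and at SNX19 SNPs, the ones given above, which is 5.88% of the pairs against 4.25% of the library. In the other lines 0 were called, against 1.22%, 2.6% and 0.337% of the library, while 2, 10 and 4 pairs had an unadjusted p under 0.05. There DESeq2 called 7, 12 and 6 (13.2%, 19.0% and 9.38%, against 17.5%, 30.3% and 15.7% of the library) and limma-voom 0, 2 and 0 (against 3.86%, 6.37% and 1.52%). In PC-12 DESeq2 called 21 (30.9% against 34.6%) and limma-voom 3 (4.41% against 6.45%). Without input 1, 2 or 3 there were 0 placement calls in PC-12, and 0% of the library was called. Without RNA 1 there were 9, 23, 7 and 60 in the 4 lines (17.0%, 36.5%, 10.9% and 88.2%, against 29.5%, 49.4%, 25.3% and 86.3% of the library). Without RNA 2 HEK-293T had 7 (10.9% against 6.14%). Without RNA 3 there were 1, 2 and 45 in Neuro-2a, SH-SY5Y and PC-12 (1.89%, 3.17% and 66.2%, against 2.92%, 4.86% and 68.6%). For CTSF allele 2 the 50/150 over 100/100 difference was 4.38 ± 3.89 in Neuro-2a, 2.21 ± 0.73 in SH-SY5Y cells, 2.84 ± 3.48 in HEK-293T and 1.54 ± 0.37 in PC-12 (adjusted p = 0.654, 0.166, 0.741 and 0.14), with no call.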

How the data were processed

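For each cell line the authors deposited unnormalized counts of reads, with a column per allele and library, per the file headers. The counts are named as filtered, and the filter was not examined. Of the 87 chromosome 11 alleles, 74 were present in all 4 lines, so the alleles tested differ between lines. The submitters' processing notes name limma 3.40.6; for aligner, counter and build the sources used here give no name. The labels' protocols call the libraries biological replicates and give no batch. Each p-value and SE rests on 1 spread fitted to RNA and input libraries together. For chromosome 11 alleles the median SD was 0.04 between input libraries and 0.48 to 1.0 between RNA libraries. The p-values and SEs therefore do not measure the spread between RNA replicates alone. PC-12 RNA replicate 2 was not used here. Reads from PCR are not independent molecules, so depth covers counting error only.

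Library sizes were set by TMM (trimmed mean of M values) in R 4.3.3, and an allele with a mean count of at least 10 was tested. CPM values are counts over that library size. Activity (RNA against input), the allelic effect (allele 2 over allele 1, RNA against input, with library as a term), the placement difference (built the same way) and the difference of allelic effects between lines were fitted over the whole library with edgeR 4.0.16 (quasi-likelihood, two-sided, Benjamini-Hochberg adjusted p of 0.05). Each SE follows from the fitted value and its F. Alternatives were DESeq2 1.42.0, limma-voom (limma 3.58.1), DESeq2 size factors, a minimum of 50 or none, the replicate number as a block, and leaving out each library.

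The members and lists were chosen with earlier results of these data known. Named were the 4 SNPs at RAB3IL1, PCNX3, CTSF and IGSF9B, every member past the threshold in a line, the 3 highest and 3 lowest alleles per line, and the 2 largest allelic effects in each direction with 1 sign in all RNA libraries; some values just outside the threshold were added after they were seen. Gene names come from a table of GRCh38.p14 protein-coding genes. Same-numbered RNA libraries of different lines shared deviations (r = 0.141 to 0.682 in 15 pairs), most of all RNA 1 (0.588 to 0.682). Same-numbered RNA and input libraries correlated at r = -0.09 to 0.171, over 0.1 in 1 of 11. Input libraries spread far less than RNA libraries, so a shared part could be hidden. Whether the numbers pair RNA with input is therefore not settled by these correlations. Fragment sequences are not printed.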

Additional observations from a re-analysis of the deposited data

Results flagged for a closer look

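Some fragments lay on opposite sides of 0 in 2 lines in every RNA library of both. Except where stated, these differences were not tested, and all lines share the input libraries. The library's share of such cases is not given, so the list does not show that lines differ.

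Most of them involved PC-12, which has 2 RNA libraries. At SNX19, allele 1 of the 100/100 fragment of 130848735 was at 1.5 in PC-12, against -0.10 ± 0.11 (SE) in SH-SY5Y, which is near 0. Allele 1 of the 150/50 fragment of 130847545 was at 0.17 in PC-12, against -1.38 ± 1.33 in Neuro-2a. By library the Neuro-2a values were -0.51, -7.42 and -1.18. Allele 1 of the 100/100 fragment of the first IGSF9B SNP was at 0.76 in PC-12, against -0.73 in Neuro-2a and -0.69 in SH-SY5Y. Allele 1 of the C11orf87 150/50 fragment was at 0.26 in PC-12, against -0.49 in SH-SY5Y and -0.42 in HEK-293T. Allele 2 of the STT3A 150/50 fragment was at 0.51 in PC-12, against -1.40 in SH-SY5Y and -0.90 in HEK-293T. At RAB3IL1, allele 2 of the 50/150 fragment was at 0.43 in PC-12, against -0.69 in Neuro-2a and -0.33 in HEK-293T. For TMX2, allele 2 of the 50/150 fragment was at 0.60 in PC-12, against -0.32 in HEK-293T.

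In other cases PC-12 was the lower line or was not involved. Allele 2 of the IGSF9B 133982789 150/50 fragment was at 1.27 in Neuro-2a and 1.14 in HEK-293T, against -0.53 in PC-12. Allele 2 of the ESAM 150/50 fragment was at 0.73 in SH-SY5Y, against -0.27 in PC-12. Allele 2 of 130847545 in the 150/50 placement was at 0.44 in SH-SY5Y, against -0.64 in Neuro-2a. The RAB3IL1 50/150 allelic effect was 0.40 in SH-SY5Y, against -0.79 in Neuro-2a; here the test over all 4 lines gave an unadjusted p of 0.0129 and an adjusted p of 1 in edgeR.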

How the results depend on the processing

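No called activity or placement value changed sign under any alternative: over the named calls and settings, 133 activity and 27 placement values kept their call and 87 and 13 lost it. With the replicate block 0 chromosome 11 alleles were called for activity in each line. The library's share was then 0.064% in SH-SY5Y and 0% in the other lines. With that block 0 fragments differed between lines. RNA and input share only a number in the labels. DESeq2 called 10, 18, 11 and 31 alleles for activity in the order Neuro-2a, SH-SY5Y, HEK-293T, PC-12 (13.0%, 21.7%, 13.1% and 36.0%, against 27.9%, 30.9%, 23.6% and 40.3% of the library), 2, 1 and 1 allelic effects in Neuro-2a, SH-SY5Y and PC-12, and 7, 12, 6 and 21 placement differences. For activity limma-voom called 3, 6, 0 and 10 (3.9%, 7.23%, 0% and 11.6%, against 7.61%, 11.9%, 4.04% and 13.7%). It kept 5 of the 8 SH-SY5Y activity calls and 6 of the 8 of PC-12. In SH-SY5Y it called 2 placement differences. Leaving out 1 library at a time gave 0 to 23, 0 to 34, 0 to 19 and 0 to 78 activity calls, 0 to 3, 0 to 12, 0 to 4 and 0 to 25 allelic calls and 0 to 9, 0 to 23, 0 to 7 and 0 to 60 placement calls in the same order of lines. Each count was 0 without input 1, 2 or 3, where at most 0.192% of the library was called. The highest counts came without RNA 1 (for HEK-293T placement, also without RNA 2). The cause was not tested. For PC-12 the highest counts rest on a single RNA library.

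Allelic effects of the 4 chosen SNPs that changed sign when 1 library was left out were uncalled with all libraries. For the first IGSF9B SNP the 50/150 effect ran from -9.75 to 1.31 in Neuro-2a, -1.44 to 6.95 in SH-SY5Y, -5.18 to 5.79 in HEK-293T and -16.97 to 2.24 in PC-12, and the 150/50 effect from -0.29 to 0.34 in SH-SY5Y and -5.19 to 0.20 in HEK-293T. RAB3IL1 150/50 ran from -0.45 to 0.29 in Neuro-2a, -0.14 to 0.32 in SH-SY5Y and -0.13 to 0.91 in PC-12, its 100/100 effect from -0.31 to 4.14 in Neuro-2a and its 50/150 effect from -0.08 to 0.43 in PC-12. PCNX3 150/50 ran from -0.64 to 1.04 in Neuro-2a. CTSF 100/100 ran from -6.74 to 3.29 in Neuro-2a, -1.48 to 0.53 in SH-SY5Y, -6.70 to 0.14 in HEK-293T and -2.83 to 2.05 in PC-12. The cause was not tested.

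RNA libraries spread far more than input libraries, and some RNA values were 0. How far spread, values at 0 and depth each limit these comparisons was not tested. With 2 or 3 RNA libraries a line, and replicate 1 apart from the others, a value that was not called is not shown to be 0.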
